A study of Homo sapiens with 4 samples.

Results

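The genes described here are the 30 genes of cholesterol synthesis, uptake and efflux control, taken by symbol from the 19475 gene symbols of 1 deposited table, with the most abundant listed transcript standing for each gene. They comprise 7 enzymes of the mevalonate steps, 3 that make squalene and lanosterol, and 8 of those that act from lanosterol to cholesterol. The others are 5 genes of SREBP control, 5 genes of receptor decay, sterol transfer and storage, and 2 liver X receptor (LXR) genes. All 30 reached an FPKM of 1 in 2 or more libraries and were tested. FPKM is a tag number divided by transcript length and by library size, so that levels of different genes can be set side by side.

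SKOV3, a human ovarian cancer line long in culture, was sequenced for RNA in 2 libraries of cells grown on TCP (tissue culture plate) and 2 libraries of tumor spheroids grown on plates coated with polymer X. The labels place the TCP libraries at day 0 and the polymer X libraries at day 8, and name no gene alteration in either. The line was kept in medium with fetal bovine serum and spheroids were grown in serum replacement, by the methods text, whereas the labels repeat the serum replacement protocol for every library. Substrate, time in culture and, if the TCP cells were in serum, the lipoproteins of the medium cannot be told apart in this design. The labels do not say that the 2 libraries of a group came from separate cultures, so p-values measure only the spread between these libraries, which may be technical. Every difference is also one of bulk RNA, in which fewer cells that express a gene and less of its RNA per cell cannot be told apart.

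Cholesterol is built from acetyl-CoA through mevalonate, isoprenoid units, squalene and lanosterol, and most of the enzymes are transcribed under the SREBP factors. SREBPs are made as membrane precursors in the endoplasmic reticulum, where SCAP escorts them to the Golgi for cleavage when sterols are scarce and the INSIG proteins hold SCAP back when sterols are plentiful. LXRs sense oxysterols and drive efflux genes, SREBF1 and MYLIP, so that the 2 factor families act at opposite ends of the sterol range. Transcript levels do not measure SREBP cleavage, and neither protein nor sterol was measured in these libraries.

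SREBPs act at the sterol regulatory element together with NF-Y, which binds CCAAT, and SP1, which binds GGGCGG. The start regions of SREBF2, with its own sterol element, of both INSIG genes, which rose, and of the mevalonate enzyme gene MVK are therefore shown, as the 250 bases before an annotated RefSeq start in build GRCh38.p14, 5′ to 3′ on the strand of the gene. Capitals mark TCACNCCAC, the core of the sterol element, and CCAAT, each on either strand. The windows lie at chr22:41832855-41833104 for SREBF2, chr7:155297628-155297877 for INSIG1, chr2:118088221-118088470 for INSIG2 (the farther upstream of 2 annotated starts) and chr12:109573544-109573793 for MVK, all on the plus strand.
SREBF2: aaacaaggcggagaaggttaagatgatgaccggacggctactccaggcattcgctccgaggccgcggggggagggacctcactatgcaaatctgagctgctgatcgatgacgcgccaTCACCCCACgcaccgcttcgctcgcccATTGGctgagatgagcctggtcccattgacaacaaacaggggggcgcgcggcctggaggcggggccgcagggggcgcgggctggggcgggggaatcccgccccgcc
INSIG1: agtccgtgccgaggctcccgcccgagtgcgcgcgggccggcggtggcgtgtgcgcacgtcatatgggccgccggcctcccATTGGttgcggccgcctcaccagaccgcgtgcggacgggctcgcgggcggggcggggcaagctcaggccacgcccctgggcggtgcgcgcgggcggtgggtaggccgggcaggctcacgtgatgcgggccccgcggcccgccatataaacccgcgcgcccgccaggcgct
INSIG2: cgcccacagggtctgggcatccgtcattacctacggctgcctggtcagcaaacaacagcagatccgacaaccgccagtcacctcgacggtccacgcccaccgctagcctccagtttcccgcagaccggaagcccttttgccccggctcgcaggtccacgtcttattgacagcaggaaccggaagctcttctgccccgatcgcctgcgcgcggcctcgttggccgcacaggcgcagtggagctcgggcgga
MVK: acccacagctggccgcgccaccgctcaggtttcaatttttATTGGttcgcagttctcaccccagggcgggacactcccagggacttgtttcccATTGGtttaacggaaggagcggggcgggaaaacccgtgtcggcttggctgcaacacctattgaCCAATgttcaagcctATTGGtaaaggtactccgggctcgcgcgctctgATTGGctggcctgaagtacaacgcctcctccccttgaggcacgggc

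SREBF2 held the sterol element core 133 bases before its start, with a CCAAT match on the other strand 106 bases before it, and was the 1 member of the 27 with a promoter entry that held this core in its window. The searched window ran from 250 bases before to 50 after each start, and TCACNCCAC stood in 1.13% of all 35116 windows. Other forms of the sterol element were not searched, so a window without this string is not shown to lack one. INSIG1 held 1 CCAAT match, 170 bases before its start, and a CACGTG E-box 55 bases before it. The INSIG2 window had no CCAAT match and 1 GGGCGG match, 7 bases before the start. MVK held 5 CCAAT matches, 46, 79, 94, 157 and 210 bases before its start. CCAAT or its complement ATTGG stood in 22 of the 37 member windows (59.5%) and in 34.6% of all windows, and GGGCGG or CCGCCC in 33 member windows (89.2%), in 45.0% of all windows and in 66.8% of the windows of tested genes. These are matches of letters, and binding was not measured.

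On polymer X 5 of the 30 genes were called higher and 1 lower, a call being an adjusted p under 0.05 in limma with a change of at least 1 on the log2(FPKM + 1) scale. The genes that rose were INSIG2, INSIG1, NPC2, SREBF1 and TM7SF2, and the gene that fell was ACAT2. Of all 11964 genes tested, 10.7% were called higher, 9.45% lower and 20.2% in either direction, and the 6 called members made up 20.0% of the set. Counted with no fold minimum, 16 members had an adjusted p under 0.05 in the direction of a rise and 7 in the direction of a fall in limma, together 76.7% of the set, where 81.0% of all genes tested had one, 37.4% upward and 43.6% downward. Both polymer X libraries lay above both TCP libraries for 17 members and below them for 11, against 41.9% and 48.4% of all genes tested, and the groups did not overlap in 93.3% of the members and 90.4% of all genes. Over both directions together the share was near the background by each count. By direction, more members pointed up than down by each count. All genes tested also had more calls higher than lower, but pointed down more often with no fold minimum and by library overlap. The contrast was not tested. The median log2 fold change was 0.18 over the members and -0.06 over all genes tested, whose quartiles were -0.54 and 0.46.

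**Figure D1:**
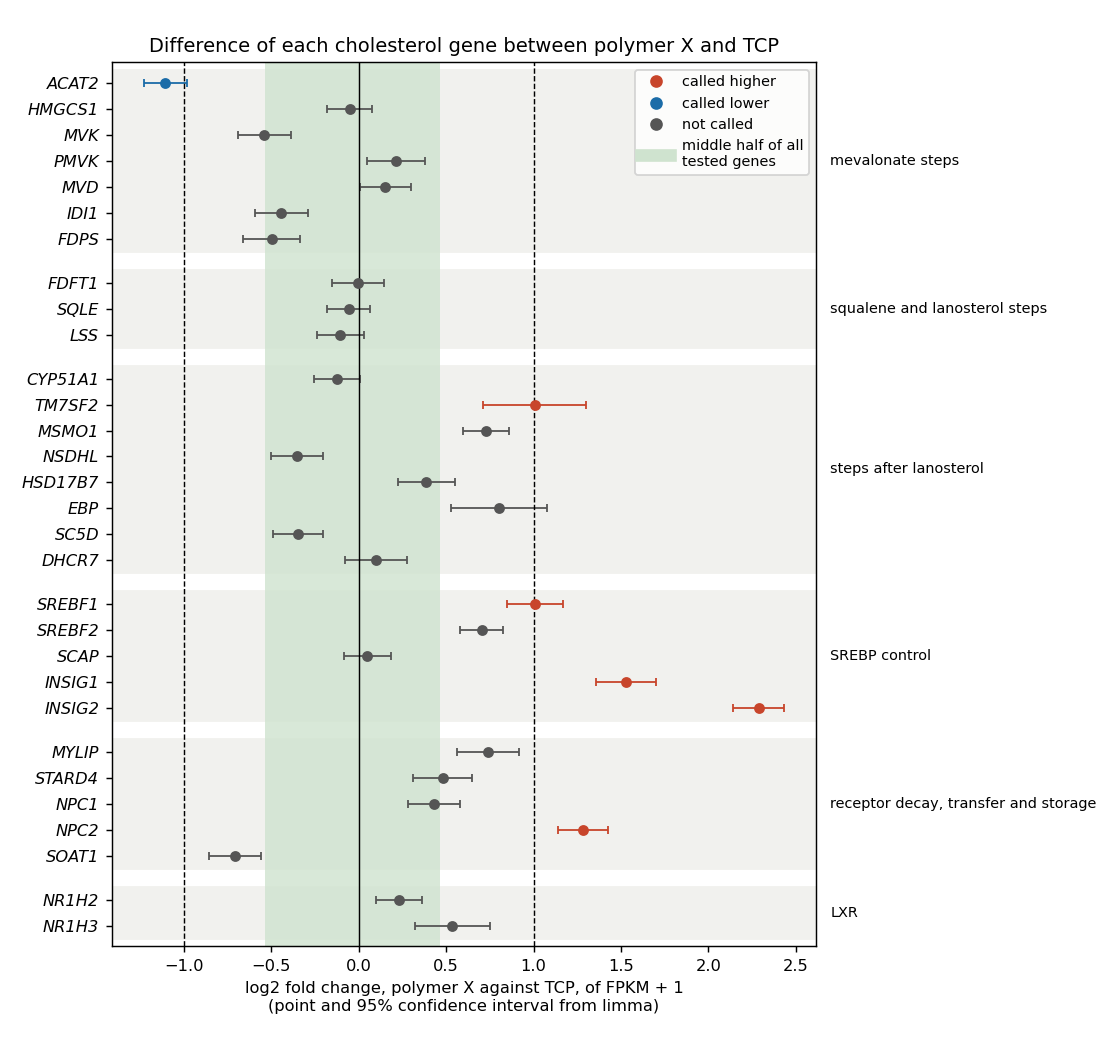
Each point is the log2 fold change of FPKM + 1 of 1 gene, polymer X against TCP, with its 95% confidence interval from limma (2 libraries a group), and the shaded band holds the middle of all tested genes between quartiles of -0.54 and 0.46. INSIG2 lies farthest right at 2.29 and ACAT2 farthest left at -1.11, while squalene and lanosterol enzymes lie near 0.

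By role, 1 of the 18 enzymes was called higher and 1 lower, and their summed FPKM was 406 and 391 on TCP against 373 and 355 on polymer X. Of the 12 genes for regulators, transfer proteins and storage, 4 were called higher and 0 lower, where 10.7% and 9.45% of all genes tested were. The summed FPKM of these 12 was 139 and 141 on TCP against 255 and 258 on polymer X, 1.84 times as high. Members chosen with results known do not give a test of this contrast, and the sums are a description.

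**Figure D2:**
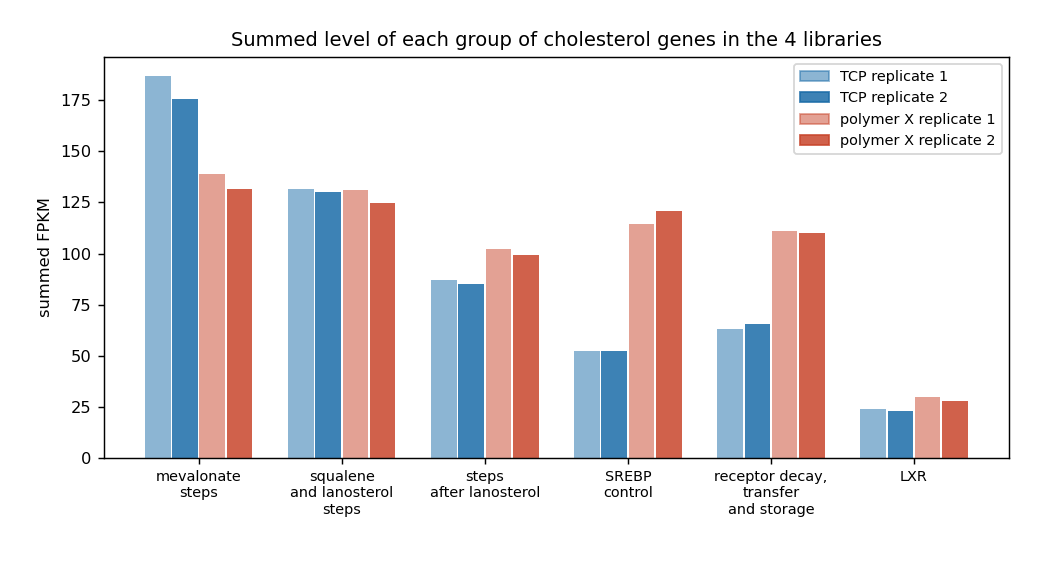
Bars give the summed FPKM of each group of cholesterol genes, 1 bar for each of the 4 libraries, on an axis that starts at 0. The SREBP control group stands at 52.1 and 52.2 on TCP and at 115 and 121 on polymer X, while the mevalonate group is lower on polymer X, with 139 and 132 against 187 and 176.

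Among the SREBP control genes, both retention genes and the SREBF1 factor gene rose, and the escort gene did not change detectably on the FPKM as deposited. INSIG2, whose product holds SCAP in the endoplasmic reticulum, had an FPKM of 6.46 and 6.09 on TCP and of 33.2 and 35.8 on polymer X. The lowest polymer X library was thus far above the highest TCP library. The means were 6.28 ± 0.266 and 34.5 ± 1.86 (SD, n = 2 each), a 5.50-fold difference with a log2 fold change of 2.29 (SE 0.06, adjusted p = 4.5e-09, limma). INSIG2 ranked 194 from the largest rise among the 11964 genes tested. In the table it is NM_001321330 on chromosome 2, from 118845994 to 118867607 in hg19.

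INSIG1, the paralog that is itself a target of SREBPs, had an FPKM of 8.68 and 8.32 on TCP and of 24.6 and 28.4 on polymer X. The groups did not overlap, and the polymer X libraries differed from each other more than the TCP libraries did. Its mean was 3.12-fold higher on polymer X, with a log2 fold change of 1.53 (SE 0.08, adjusted p = 1.1e-07, limma). It is NM_198337 on chromosome 7, from 155089482 to 155101945 in hg19. INSIG1 was the more abundant of the pair on TCP, at 1.34 and 1.37 times the INSIG2 level, and the less abundant on polymer X, at 0.740 and 0.794 times. The log2 ratio of INSIG1 to INSIG2 changed by -0.82, with no overlap between groups. The exact two-sided permutation p was 0.333, the smallest that 2 libraries against 2 allow.

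SREBF1, which encodes the SREBP best known for fatty acid genes, had an FPKM of 2.93 and 2.88 on TCP and of 6.62 and 7.10 on polymer X. All 4 values were low among the members, and the 2 polymer X values lay above both TCP values. The difference was 2.36-fold, with a log2 fold change of 1.01 (SE 0.07, adjusted p = 1.1e-06, limma), just past the fold minimum: it was 1.00 and no longer called without TCP replicate 2, and 0.96 without polymer X replicate 2. The gene is listed as NM_001321096 on chromosome 17, from 17715386 to 17726978 in hg19.

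SREBF2, the SREBP best known for cholesterol genes, had an FPKM of 22.3 and 23.1 on TCP and of 37.9 and 37.3 on polymer X. The groups did not overlap, but the log2 fold change of 0.70 (SE 0.05, adjusted p = 2.0e-06, limma) was under the fold minimum, and the gene was not called. SREBF2 stayed the more abundant of the pair, at 7.61 and 8.00 times the SREBF1 level on TCP and at 5.72 and 5.25 times on polymer X. The log2 ratio of SREBF1 to SREBF2 differed by 0.51, with an exact two-sided permutation p of 0.333, again the smallest possible. SCAP, the escort, was nearly level, with an FPKM of 11.7 and 11.8 on TCP and of 12.5 and 12.01 on polymer X. Its log2 fold change was 0.05, with a 95% interval of -0.09 to 0.18 (adjusted p = 0.47, limma) on the values as deposited. After quantile normalization it was 0.15 (adjusted p = 0.034, limma).

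**Figure D3:**
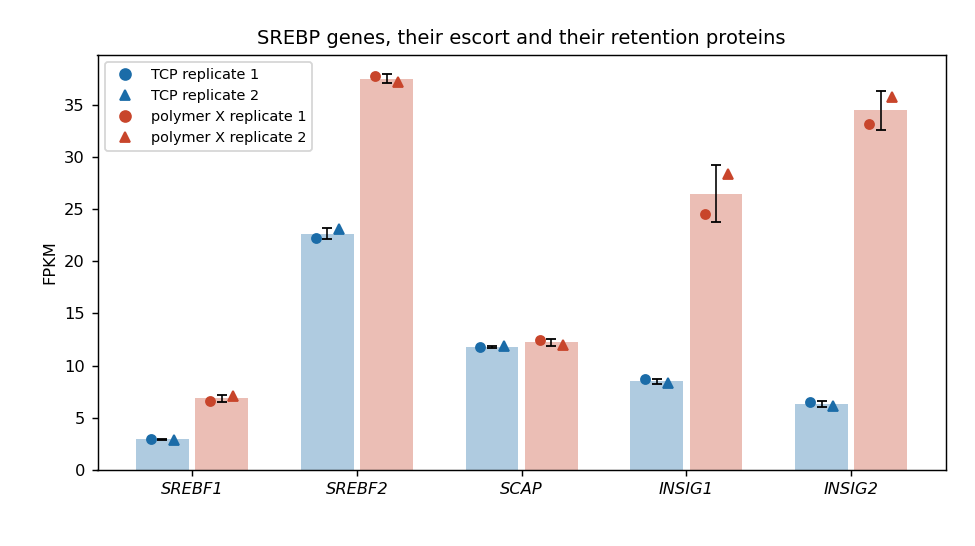
Points give the FPKM of the 5 SREBP control genes in each of the 4 libraries, on a linear axis from 0, with bars for the mean of each group and error bars for its SD (n = 2). INSIG2 goes from 6.46 and 6.09 on TCP to 33.2 and 35.8 on polymer X and passes INSIG1, while SCAP stays between 11.7 and 12.5.

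Of the 7 mevalonate enzymes, 1 fell, 0 rose and 6 were not called, where 20.2% of all genes tested were called. Their median log2 fold change was -0.44. ACAT2, the cytosolic thiolase that makes acetoacetyl-CoA, had an FPKM of 42.2 and 41.3 on TCP and of 18.8 and 18.9 on polymer X. It was 2.21-fold lower on polymer X, with libraries of a group almost equal and a log2 fold change of -1.11 (SE 0.05, adjusted p = 9.8e-08, limma). ACAT2 is NM_005891 on the plus strand of chromosome 6, from 160182989 to 160200087 in hg19. Its listed span overlaps those of 2 minus-strand genes, TCP1 (a chaperonin subunit) by 558 bases and SOD2 (a mitochondrial superoxide dismutase) by 573 bases, and tags were counted on both strands. TCP1 had an FPKM of 127 and 121 on TCP and of 40.8 and 34.8 on polymer X, and SOD2 one of 38.1 and 38.3 on TCP and of 76.1 and 68.2 on polymer X. The part of shared tags in the ACAT2 value was not tested.

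HMGCS1, which makes HMG-CoA and is a classical SREBP target, had an FPKM of 24.2 and 24.2 on TCP and of 24.0 and 22.7 on polymer X. The log2 fold change was -0.05, with a 95% interval of -0.18 to 0.08 (adjusted p = 0.43, limma) on the values as deposited, and 0.18 (adjusted p = 0.013, limma) after quantile normalization. MVK, which phosphorylates mevalonate, had an FPKM of 9.17 and 9.89 on TCP and of 6.19 and 6.30 on polymer X, or a log2 fold change of -0.54. FDPS, which makes farnesyl pyrophosphate, had one of 65.9 and 57.8 against 45.0 and 41.8, and IDI1, the isopentenyl isomerase, one of 15.8 and 14.8 against 11.5 and 10.5. For MVK, FDPS and IDI1 both polymer X values lay below both TCP values, with log2 fold changes of -0.54, -0.50 and -0.44 and adjusted p values of 5.3e-05, 1.5e-04 and 2.0e-04 in limma, all under the fold minimum.

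The 2 remaining kinase and decarboxylase genes of this stretch pointed the other way and were not called either. PMVK, which phosphorylates phosphomevalonate, had an FPKM of 9.51 and 8.38 on TCP and of 10.7 and 10.4 on polymer X (log2 fold change 0.21, adjusted p = 0.021, limma). MVD, the decarboxylase that follows, had one of 20.1 and 19.2 against 22.9 and 21.0 (0.15, adjusted p = 0.049, limma). In the alternatives that kept every library, the adjusted p in limma was lowest with quantile normalization and highest with no filter on low values. It ran from 0.0064 to 0.12 for PMVK and from 0.00038 to 0.14 for MVD.

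The 3 enzymes from farnesyl pyrophosphate to lanosterol gave no call. None had an adjusted p under 0.05 in limma on the FPKM as deposited, with the most abundant transcript kept. Among all genes tested, 20.2% were called and 81.0% had such an adjusted p. FDFT1, the squalene synthase and the most abundant member on polymer X, had an FPKM of 77.1 and 74.3 on TCP and of 79.7 and 71.5 on polymer X, so that the groups overlapped. SQLE, the squalene epoxidase, had one of 29.7 and 29.4 on TCP and of 28.1 and 28.6 on polymer X. LSS, which closes the ring to lanosterol, had one of 24.9 and 26.6 against 23.3 and 24.4. The log2 fold changes of FDFT1, SQLE and LSS were -0.00, -0.06 and -0.10, with 95% intervals of -0.15 to 0.14, -0.18 to 0.06 and -0.24 to 0.03 in limma. After quantile normalization they were 0.32, 0.18 and 0.12, with adjusted p values of 0.00063, 0.013 and 0.097 in limma. With transcripts summed per gene they were 0.019, -0.06 and -0.16, with adjusted p values of 0.80, 0.39 and 0.041 in limma.

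**Figure D4:**
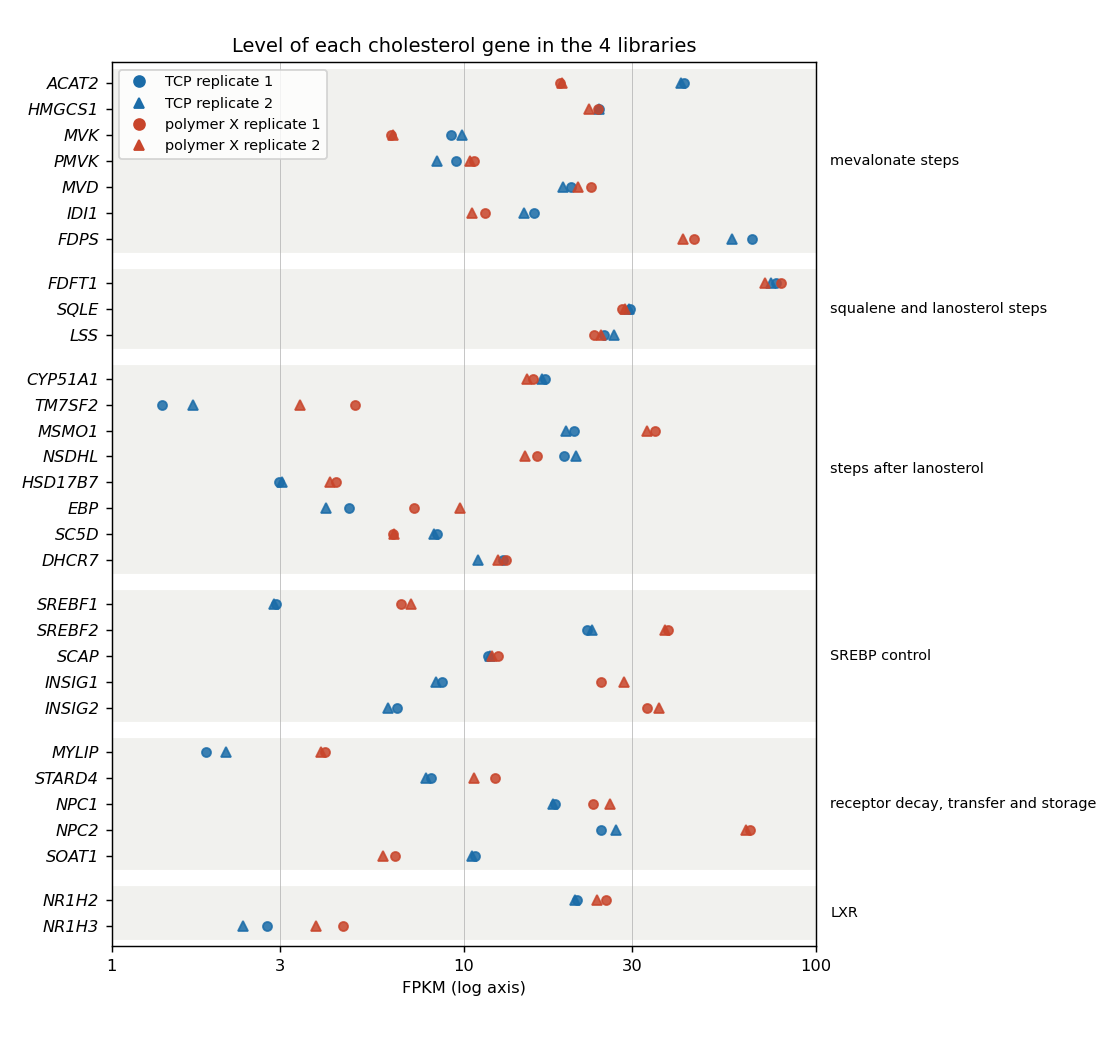
Each row gives the FPKM of 1 of the 30 genes in each of the 4 libraries on a log axis, ordered by role. FDFT1 and FDPS are the most abundant on TCP at 77.1 and 65.9 in replicate 1, and TM7SF2 and MYLIP the least abundant at 1.39 and 1.85.

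Of the 8 enzymes after lanosterol, 1 rose, 0 fell and 7 were not called, where 20.2% of all genes tested were called. Members of the same reaction series differed in direction. TM7SF2, a sterol reductase, had an FPKM of 1.39 and 1.70 on TCP and of 4.89 and 3.42 on polymer X, from 85, 121, 311 and 221 tags. The groups did not overlap, though the polymer X libraries lay well apart. The log2 fold change was 1.01 (SE 0.13, adjusted p = 6.4e-05, limma) and the call was lost without TCP replicate 1, at 0.92, or without polymer X replicate 1, at 0.80. TM7SF2 is NM_003273 on chromosome 11, from 64879326 to 64883707 in hg19, and its span overlaps that of VPS51 on the same strand by 7 bases. LBR, a reductase of the same step that is not a member, had an FPKM of 21.9 and 22.8 on TCP and of 11.3 and 10.8 on polymer X. The log2 fold change of LBR was -0.96 (SE 0.06, adjusted p = 5.0e-07, limma), under the fold minimum, and LBR was not called.

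MSMO1 is the oxidase that begins the removal of the sterol methyl groups left after the CYP51A1 step. MSMO1 had an FPKM of 20.6 and 19.5 on TCP and of 34.8 and 33.0 on polymer X, a 1.69-fold difference. Its log2 fold change of 0.73 (SE 0.06, adjusted p = 2.7e-06, limma) was under the fold minimum. NSDHL, the dehydrogenase of the same demethylation, had one of 19.2 and 20.9 on TCP and of 16.1 and 14.9 on polymer X, and HSD17B7, the ketoreductase, one of 2.98 and 3.05 on TCP and of 4.33 and 4.16 on polymer X. The 3 enzymes of this demethylation thus had non-overlapping groups, as 90.4% of all genes tested did. Their directions differed, with log2 fold changes of 0.73, -0.35 and 0.39, and none was called. EBP, the sterol isomerase, had an FPKM of 4.71 and 4.07 on TCP and of 7.19 and 9.77 on polymer X, or a log2 fold change of 0.80 (SE 0.12), and was called, at 1.00, only where polymer X replicate 1 was left out.

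The other 3 genes after lanosterol were lower or level without a call. SC5D, a sterol desaturase, had an FPKM of 8.38 and 8.24 on TCP and of 6.30 and 6.33 on polymer X, or a log2 fold change of -0.35. CYP51A1, the lanosterol demethylase, had one of 17.0 and 16.7 against 15.7 and 15.1 (-0.12, adjusted p = 0.074, limma). DHCR7, the reductase of the last step, had one of 12.9 and 10.96 against 13.1 and 12.5, and its groups overlapped.

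Of the 5 genes of receptor decay, sterol transfer and storage, 1 rose, 0 fell and 4 were not called. The groups were apart in all 5, as in 90.4% of all genes tested, of which 20.2% were called. NPC2, the soluble lysosomal protein that hands cholesterol to NPC1, had an FPKM of 24.5 and 27.1 on TCP and of 64.8 and 63.4 on polymer X. Both polymer X libraries lay above both TCP libraries by a margin far wider than either pair. The difference was 2.49-fold, with a log2 fold change of 1.28 (SE 0.06, adjusted p = 9.8e-08, limma). NPC2 is NM_006432 on chromosome 14, from 74946643 to 74960084 in hg19. NPC1, the membrane partner in lysosomal export, had an FPKM of 18.1 and 17.9 on TCP and of 23.3 and 26.0 on polymer X. Its log2 fold change of 0.43 was under the fold minimum, and the change of NPC1 against that of NPC2 was not tested. The span of NPC1 overlaps that of RMC1 on the other strand by 309 bases, and RMC1 had an FPKM of 9.56 and 10.6 on TCP and of 9.09 and 9.57 on polymer X.

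SOAT1, which esterifies cholesterol for storage, was the member of this group with lower values on polymer X, with an FPKM of 10.7 and 10.5 on TCP and of 6.35 and 5.90 on polymer X. It was 1.73-fold lower, with a log2 fold change of -0.71 (SE 0.07, adjusted p = 7.3e-06, limma), and was not called. MYLIP, the ubiquitin ligase that marks lipoprotein receptors for decay, had an FPKM of 1.85 and 2.12 on TCP and of 4.04 and 3.92 on polymer X, a 2.00-fold difference. The log2(FPKM + 1) scale understates the change of such a low gene and gives 0.74, and MYLIP was not called. STARD4, a cytosolic sterol carrier, had an FPKM of 8.04 and 7.82 on TCP and of 12.3 and 10.7 on polymer X, or a log2 fold change of 0.48 that was not called.

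Neither LXR gene was called. NR1H2 had an FPKM of 21.0 and 20.6 on TCP and of 25.4 and 23.8 on polymer X, and NR1H3 one of 2.76 and 2.36 on TCP and of 4.54 and 3.79 on polymer X. NR1H2, the widely expressed LXR, was the more abundant in every library, and the ratio of NR1H3 to NR1H2 was 0.132 and 0.114 on TCP and 0.179 and 0.159 on polymer X. The log2 fold changes of NR1H2 and NR1H3 were 0.23 (SE 0.06) and 0.53 (SE 0.09), with adjusted p values of 0.0050 and 5.8e-04 in limma. The span of NR1H3 overlaps that of ACP2 on the other strand by 548 bases, and ACP2 had an FPKM of 11.8 and 11.1 on TCP and of 13.0 and 11.7 on polymer X.

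Most listed transcripts of a gene gave nearly the same difference. The 8 INSIG1 transcripts lay between 1.52 and 1.55 on the log2 fold change scale and the 6 INSIG2 transcripts between 2.25 and 2.29. The widest spread was in STARD4, whose 7 transcripts ran from 0.15 to 0.50, followed by LSS, whose 4 ran from -0.34 to -0.10, and NR1H3, whose 5 ran from 0.53 to 0.70. SREBF1 straddled the fold minimum, its 3 transcripts running from 0.94 to 1.01. Transcripts of a gene share most of their tags, so these are not independent measurements.

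**Figure D5:**
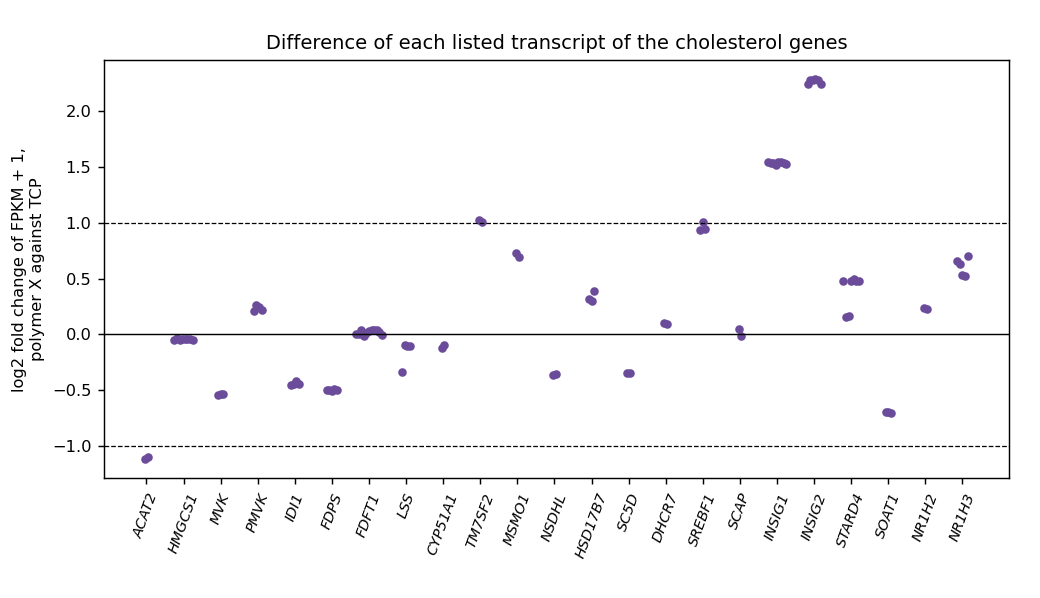
Each dot is the log2 fold change of FPKM + 1, polymer X against TCP, of 1 listed transcript of a gene. Dots of INSIG1 (1.52 to 1.55) and INSIG2 (2.25 to 2.29) nearly coincide, and those of STARD4 spread from 0.15 to 0.50.

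A second list held 59 other sterol genes, of which 51 were tested, with 4 called higher and 5 lower, or 17.6% called where 20.2% of all genes tested were. Its median log2 fold change was -0.14, and with no fold minimum 18 had an adjusted p under 0.05 upward and 25 downward in limma, where 37.4% and 43.6% of all genes tested did. PDSS1, which builds the ubiquinone side chain, fell from an FPKM of 4.71 and 4.38 on TCP to 1.33 and 1.61 on polymer X, with a log2 fold change of -1.17 (SE 0.09, adjusted p = 1.4e-06, limma). TMEM97, a sterol-binding membrane protein, also fell, from 10.2 and 10.2 on TCP to 4.39 and 4.05 on polymer X.

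The called genes of uptake, transfer and ester turnover moved in both directions. LRP1, an endocytic lipoprotein receptor, rose from an FPKM of 6.55 and 6.85 on TCP to 33.8 and 39.5 on polymer X, with a log2 fold change of 2.29 (SE 0.08, adjusted p = 1.1e-08, limma). OSBPL5, an oxysterol-binding transfer protein, rose from 2.42 and 2.09 to 7.69 and 7.83, and GRAMD1A, which carries sterol from the plasma membrane, from 12.7 and 12.7 to 27.2 and 26.1. STARD3, an endosomal sterol transfer protein, rose from 49.3 and 49.9 to 202 and 197. The gene lies near ERBB2 on the same chromosome, and ERBB2 had an FPKM of 198 and 206 on TCP and of 913 and 860 on polymer X. The part of that neighbourhood in the STARD3 value was not tested.

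Of the same list, CAV1, the caveolar scaffold that binds cholesterol, fell from an FPKM of 280 and 278 on TCP to 71.9 and 72.8 on polymer X. NCEH1, a hydrolase of cholesterol esters, fell from 30.7 and 31.8 to 8.27 and 7.18. SOAT1, which makes these esters, was lower in both polymer X libraries too but was not called. RXRB, a partner of LXR on the second list, is listed only on an alternate haplotype of chromosome 6, so its near-0 value does not measure the gene.

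The identity of the cells and the libraries bear on all of these values. Libraries of a group correlated across genes at 0.997 to 0.998 and libraries of different groups at 0.854 to 0.862, and the depth recovered from the steps of the values was about 38400000 to 44900000 tags. The epithelial keratin KRT8 had an FPKM of 262 and 269 on TCP and of 146 and 143 on polymer X, and the ovarian lineage factor PAX8 one of 48.8 and 50.5 on TCP and of 102 and 108 on polymer X. Of the markers of this cancer type, MUC16 and WT1 were under 1 in all 4 libraries, as were the epithelial genes KRT19 and CDH1. The epithelial markers did not move together: KRT7, KRT8 and KRT18 were lower in both polymer X libraries without a call, CDH1 and KRT19 were higher in both but untested, and EPCAM rose from 0.168 and 0.104 on TCP to 1.39 and 1.33 on polymer X. The 4 leukocyte markers summed to 0.160 and 0.0960 on TCP and to 0.823 and 0.962 on polymer X, with CD3E at 0 in every library, and the 3 endothelial markers to 0.00900 and 0.0190 against 0.617 and 0.489. The 3 fibroblast markers summed to 8.34 and 8.56 on TCP and to 11.2 and 9.99 on polymer X, where DCN rose from 0.0250 and 0 to 7.26 and 6.20, COL1A1 was 8.21 and 8.48 on TCP against 3.81 and 3.77 on polymer X, and PDGFRB was under 1 in every library. Their part in the values of the cholesterol genes was not tested.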

How the data were processed

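Polyadenylated RNA of 4 SKOV3 libraries was measured, 2 of each group as given by the sample titles. The FPKM values the authors deposited were made with HOMER per RefSeq transcript of hg19, from exon tags of both strands, and rounded to 3 decimals. The submitters' processing notes also name STAR 2.4.0 and DESeq. The version of HOMER is not given in the sources used here, and 4 further libraries named in the header have no column. FPKM keeps no count, but its steps were whole multiples of 1 tag within 0.1 for 100% of the low values used, and gave the depth per library; mates of a pair counted as 2 tags would make counting errors larger.

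For each of the 19475 symbols the transcript highest in mean FPKM was kept. The 11964 genes that reached an FPKM of 1 in 2 or more libraries entered limma (version 3.58.1, R version 4.3.3) as log2(FPKM + 1), with a trended prior variance, group as the only term and Benjamini-Hochberg adjustment over all of them. Fold changes on this scale understate the change of low genes. The procedure was tested on simulated data with 200 of 11708 genes changed. Every changed gene passed the adjusted p in the right direction and no unchanged gene was called, but some changed genes stayed under the fold minimum on this scale. A stricter pass criterion, on the share past the fold minimum, was replaced after 1 simulation missed it (177 of 200). In the real data 81.0% of all genes tested had an adjusted p under 0.05 in limma, so the simulations do not give the rate of false calls here. All 30 members are named, with the called genes of the second list, at most 5 in each direction, and genes that overlap a member; 1 called gene of the second list is counted but not reported here. LBR, RXRB and ERBB2, which lies near STARD3, were named after their values were seen, as were the markers given singly. The members and lists were chosen with earlier results of these data known. Each alternative changed a single choice: a pseudocount of 0.1, the filter (none, or a mean FPKM from 5 up), the scaling (quantile, or to a common median), a replicate block, transcripts summed per gene, an untrended prior, the fold minimum, or 1 library left out. Promoter sequences are those of RefSeq in GRCh38.p14, and 27 of the 30 members had an entry.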

Additional observations from a re-analysis of the deposited data

How the results depend on the processing

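With 2 libraries a group, small differences rest on single libraries, and the fold minimum decides most calls. The count of members called higher (5) was 3 with a mean FPKM of at least 5, 3 with quantile normalization, 16 with no fold minimum and 1 with a minimum of 2 on the log2 scale, and it ran from 4 to 5 with each library left out. The filter at a mean FPKM of 5 left SREBF1, TM7SF2, HSD17B7, MYLIP and NR1H3 untested, so its count and median rest on fewer members. The count called lower (1) was 0 with quantile normalization, 7 with no fold minimum and 0 with a minimum of 2. Of the second list, 7 were called higher with a pseudocount of 0.1, 18 with no fold minimum and 1 with a minimum of 2, against 4, and 3 to 4 with each library left out; 25 and 0 were called lower with no fold minimum and with a minimum of 2, against 5, and 5 to 6 with each library left out. The median of the members was 0.049 with a mean FPKM of at least 5, 0.30 with quantile normalization and 0.13 to 0.22 with each library left out. Over all genes tested the median was -0.20, -0.05 and -0.08 to -0.04 in the same settings. Quantile normalization split the calls of the members 3 to 0 in place of 5 to 1, lost, among the members, SREBF1 (0.91), TM7SF2 (0.78) and ACAT2 (-0.86), and turned CYP51A1 to 0.036, FDFT1 to 0.32, HMGCS1 to 0.18, LSS to 0.12 and SQLE to 0.18; the cause was not tested. With quantile normalization FDFT1, HMGCS1, SQLE, DHCR7 and SCAP also gained an adjusted p under 0.05 in limma (0.00063, 0.013, 0.013, 0.025 and 0.034), under the fold minimum. FDFT1 was 0.038 with a common median and 0.019 with summed transcripts, and ran from -0.082 to 0.074 with each library left out, positive without TCP replicate 1 (0.023) or polymer X replicate 2. DHCR7 ran from -0.0092, without TCP replicate 2, to 0.21. GRAMD1A fell just under the minimum, at 0.99, without polymer X replicate 1. In a fit with a replicate block, the counts were 5, 1, 4 and 5 and the median 0.18, and no call changed; libraries of the same number correlated at 0.093 in their deviations from the group means, so the numbers do not pair them. Leaving out a library assumes that the lone one varies like the other group. INSIG2 (2.23 to 2.44), INSIG1 (1.43 to 1.67) and NPC2 (1.21 to 1.57) kept direction and call under all 12 alternatives run for each at the fold minimum of 1.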
